A study of Mus musculus with 27 samples.

Results

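The genes described here are 9 keratins, chosen by name from the 50559 gene rows of the count table with earlier results of these data known. Of these, 5 are luminal keratins of simple epithelium (Krt7, Krt8, Krt18, Krt19 and Krt23) and 4 are suprabasal keratins of stratified epithelium (Krt1, Krt10, Krt4 and Krt13). The organoids were grown from thyroid gland of C57BL/6 mice, 8 to 12 weeks old, in Matrigel with DMEM/F12 medium, EGF, FGF2, the ROCK inhibitor Y27632 and B27. After 5 days of growth they received photon irradiation or none. The study's methods state that the mice were female. Unirradiated organoids of day 5, and organoids of days 7 and 11 exposed to 0, 2, 4 or 7 Gy, make 9 groups of 3 libraries, 27 in all. The series text names 4 mice, the labels number the mice of each group 1 to 3, and the column headers carry 3 culture names, mTG11, mTG12 and mTG14, each present once in every group. Values per library are given in that order of cultures.

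Keratins are the intermediate filament proteins of epithelial cells, and each filament is built from obligate pairs of a type I and a type II keratin. Simple, single-layered epithelia such as ducts and the thyroid follicle use Krt8 with Krt18, joined by Krt7 and Krt19, whereas stratified epithelia make Krt5 with Krt14 in the basal layer and change to other pairs as cells move up. Krt1 with Krt10 forms the suprabasal filaments of epidermis, and Krt4 with Krt13 those of moist mucosa such as oesophagus and mouth.

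Libraries were made with Smart3SEQ, which counts cDNA fragments from the 3′ ends of polyadenylated RNA. The totals ran from 2528866 to 5723150 counts, with a median of 3758142. A level is given as CPM, the count of a gene scaled to the total of its library. A count of 0 allows up to 3 counts, which is 0.524 to 1.19 CPM over the 27 libraries and covers counting error only. Whether PCR copies were removed by molecular identifiers is not stated. With 3′ end counting a gene's length enters the count little, but the capture of each 3′ end is unknown, so that sums and ratios across different keratins are descriptions on the CPM scale. Changes were tested with edgeR over all genes, and a gene is called where its Benjamini-Hochberg adjusted p is under 0.05. Log2 fold changes carry their standard error (SE).

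The label of the samples is thyroid gland, and the markers of thyroid follicular cells (thyrocytes) were mostly near the floor. Over all 27 libraries together, thyroglobulin (Tg) had 277 counts, Slc5a5 6, Tshr 11, Pax8 23.2, Iyd 6 and Dio1 13. The thyroid transcription factors Nkx2-1 and Foxe1 averaged 12.5 and 29.8 CPM, and the oxidase genes Duox2 and Duoxa2 averaged 27.6 and 60.1 CPM. The 13 thyrocyte markers, all above 0 somewhere and led in the mean over all 27 libraries by Duoxa2, summed to 53.8, 68.6 and 60.7 CPM at day 5, 52.9, 44.8 and 54.1 CPM at day 7 and 289, 203 and 278 CPM at day 11 without irradiation. Keratins were far more abundant: all keratin rows summed to 34087 ± 3775 CPM at day 5, 25727 ± 1377 at day 7 and 13895 ± 310.4 at day 11 (SD, n = 3). Each library is bulk RNA of whole organoids, in which fewer cells of a type and less RNA per cell cannot be told apart.

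The 9 keratins lie in the 2 keratin clusters of the mouse genome (GRCm39, GENCODE vM39). The type I genes on chromosome 11 are Krt10 (ENSMUSG00000019761.12, chr11:99276072-99280195, minus strand), Krt23 (ENSMUSG00000006777.9, chr11:99366873-99383963, minus strand), Krt13 (ENSMUSG00000044041.6, chr11:100008153-100012392, minus strand) and Krt19 (ENSMUSG00000020911.16, chr11:100031636-100039491, minus strand). The type II genes on chromosome 15 are Krt7 (ENSMUSG00000023039.18, chr15:101308924-101328194, plus strand), Krt1 (ENSMUSG00000046834.8, chr15:101753861-101759229, minus strand), Krt4 (ENSMUSG00000059668.7, chr15:101826970-101833170, minus strand) and Krt8 (ENSMUSG00000049382.12, chr15:101905133-101912917, minus strand). Krt18 (ENSMUSG00000023043.9, chr15:101936615-101940462, plus strand) is the type I gene that sits beside Krt8 in the type II cluster. The luminal partners Krt8 and Krt18 are thus neighbours on opposite strands, and Krt4, a suprabasal gene, lies on the other side of Krt8.

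All 9 passed the filter of 10 summed counts in every comparison. Krt1 was the scarcest, from 0 to 23.3 counts per library and at or under 3 counts in 15 of 27 libraries, so its changes rest on few counts. Krt8 shares sequence with a processed pseudogene, Krt8-ps (chr7:23056550-23057494), which held 24.4 to 32.6% (median 28.1%) of the summed Krt8 and Krt8-ps counts of a library. Antisense noncoding genes overlap Krt7 (Gm671, at most 1.03 CPM) and Krt8 (Gm36026, at most 1.19 CPM). Krt19 and Krt10 are also overlapped by such genes, which the count table does not hold.

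The luminal genes are taken first, without irradiation. Krt7, a type II keratin of ducts and glands, measured 103, 102 and 53.3 CPM at day 5, 663, 377 and 473 CPM at day 7 and 1383, 824 and 1092 CPM at day 11. Each day's libraries lay wholly above those of the day before. Krt23, a type I keratin whose role is less well described, had 22.4, 10.6 and 14.0 CPM at day 5, 74.5, 39.6 and 51.5 CPM at day 7 and 379, 152 and 237 CPM at day 11. It climbed in the same steps as Krt7 without overlap, from the lowest level of the 5. Krt18, the type I keratin that pairs with Krt8, showed 145, 127 and 94.8 CPM at day 5, 311, 289.9 and 255 CPM at day 7 and 691, 497 and 439 CPM at day 11, again 3 separate ranges.

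Krt8, the type II partner of Krt18, measured 56.4, 39.0 and 31.5 CPM at day 5, 129, 75.3 and 100.5 CPM at day 7 and 119, 96.7 and 93.1 CPM at day 11. Its day 5 libraries were the lowest, and days 7 and 11 overlapped. Krt19, a small type I keratin that lacks most of the tail domain, had 326, 255 and 211 CPM at day 5, 1742, 795 and 1179.9 CPM at day 7 and 831, 507 and 448 CPM at day 11. Its highest day was day 7, where culture mTG11 stood well above mTG12, and its day 11 range met the day 7 range only through mTG11.

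Of the suprabasal genes, Krt13, the type I keratin of suprabasal mucosa, had 3115, 4253 and 4280.4 CPM at day 5, 5286, 3663 and 5701 CPM at day 7 and 2094, 2113 and 3009 CPM at day 11. Days 5 and 7 overlapped, and day 11 lay below both. Krt4, its type II partner, measured 483, 929 and 701 CPM at day 5, 2049, 1041 and 2123 CPM at day 7 and 1081, 1079.9 and 1308 CPM at day 11. Day 5 was the lowest, and the day 11 values fell inside the wide day 7 range. Krt10, the type I suprabasal keratin of epidermis, went from 44.5, 51.3 and 24.5 CPM at day 5 to 20.3, 17.8 and 14.2 CPM at day 7 and 9.77, 6.17 and 5.51 CPM at day 11, the luminal order turned round and without overlap. Its type II partner Krt1 showed 8.04, 1.90 and 4.42 CPM at day 5, 2.34, 1.86 and 1.29 CPM at day 7 and 0.595, 0.670 and 0.852 CPM at day 11, where the day 11 values are near the floor.

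Over all 9 groups the mean levels of 7 keratins fell into blocks by day, and for Krt8 and Krt1 groups of days 7 and 11 were mixed. For Krt7 the 4 groups of day 11 came first (1072 to 1138 CPM), then the 4 of day 7 (504 to 568 CPM), then day 5 (85.9 ± 28.2 CPM, SD, n = 3), and neighbours in this order overlapped within a day and were apart between days. The order for Krt23 was the same, with 256 to 279.8 CPM over the groups of day 11, 50.9 to 58.1 CPM over day 7 and 15.7 ± 6.06 CPM at day 5. Krt18 kept that order as well (497 to 596, 285 to 373 and 122 ± 25.4 CPM). Within day 7 its 2 Gy and 0 Gy groups, neighbours in the order, were also apart. For Krt19 the groups of day 7 led (1095 to 1239 CPM), those of day 11 followed (533 to 844 CPM) and day 5 was last (264 ± 57.9 CPM), and the step down to day 5 alone was free of overlap. Krt8 ran from 85.6 to 137 CPM over the 8 later groups, which overlapped along the order, and stood at 42.3 ± 12.8 CPM at day 5, below all of them.

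Krt10 had the order of Krt7 turned round, with day 5 (40.1 ± 13.9 CPM), then day 7 after 7 Gy (22.6 ± 0.551 CPM), then the other groups of day 7 (16.9 to 18.2 CPM), then day 11 (6.28 to 8.47 CPM). The steps between these 4 blocks were free of overlap. Krt4 was lowest at day 5 (705 ± 223 CPM), apart from the rest, and its other groups formed an overlapping series from 1156 CPM at day 11 without irradiation to 1903 CPM at day 7 after 7 Gy. Krt13 was highest on day 7 (4253 to 4883 CPM), with day 5 next (3883 ± 665 CPM) and day 11 last (2405 to 3152 CPM), and every neighbour in this order overlapped. Krt1 was highest at day 5 (4.79 ± 3.09 CPM) and at a mean of 0.419 to 1.83 CPM in the other 8 groups, with overlap between neighbours throughout.

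**Figure D1:**
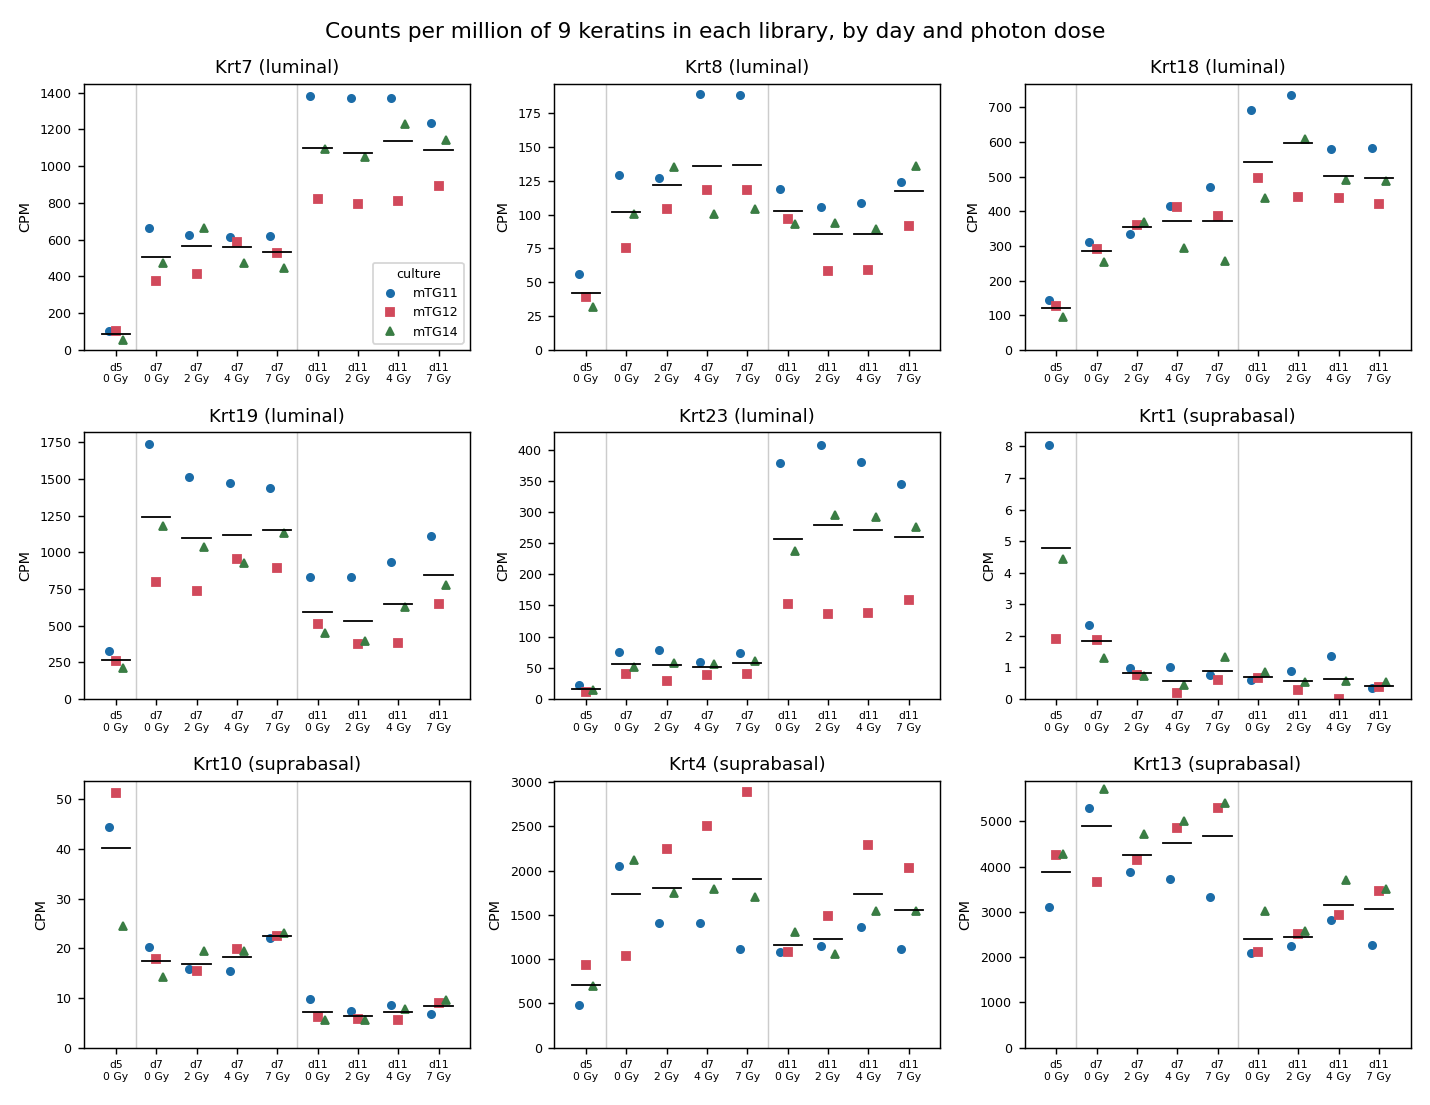
Level of each of the 9 keratins in CPM (y axis, from 0) in the 27 libraries, by day and photon dose (x axis). Points are libraries, coded by culture, and bars are group means of 3 libraries. Krt7, Krt18 and Krt23 step up from day to day and Krt10 steps down.

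Day 7 was set against day 5 without irradiation to follow the organoids through their first days of growth. Simple-epithelium keratins and suprabasal keratins mark different directions of epithelial differentiation, and a cell that leaves the basal state can take up either. In this step the luminal keratins rose together, and the suprabasal ones split between the mucosal gene Krt4 and the epidermal gene Krt10. The comparison shares its day 7 libraries with that of day 11 against day 7, and its day 5 libraries with that of day 11 against day 5.

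Of the 9 keratins, 6 were called higher and 1 lower, where 12% of all 18442 genes tested were called higher and 9.62% lower. All 5 luminal genes were among those called higher. Krt7 rose by a log2 fold change of 2.70 ± 0.27 (SE; adjusted p 5.4e-05), which is 6.51-fold, and Krt19 by 2.37 ± 0.28 (adjusted p 0.000161), 5.17-fold. Krt23 rose by 1.95 ± 0.38 (adjusted p 0.00368), and the partners Krt8 and Krt18 by 1.42 ± 0.22 (adjusted p 0.000888) and 1.37 ± 0.17 (adjusted p 0.000251). The libraries of the 2 days did not overlap for any of the 5, as for 39.8% of all genes tested, where chance alone separates 10% with 3 libraries against 3. The median log2 fold change of the luminal genes was 1.95, beside 0.04 over all genes tested.

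Among the suprabasal genes, Krt4 rose by 1.46 ± 0.26 (adjusted p 0.00201), 2.75-fold, and its libraries did not overlap. Krt10 fell, with a log2 fold change of -1.04 ± 0.26 (adjusted p 0.0121). That call rests on the day 5 library of mTG12, without which Krt10 had -0.85 (adjusted p 0.0532). Krt1 was not called at -1.25 ± 0.49 (adjusted p 0.0893), and without the same library, its lowest of day 5, it was called at -1.61 (adjusted p 0.0224). Without the day 5 library of mTG11, its highest, it was -0.70 and not called. Krt13 was not called either, at 0.48 ± 0.19 (adjusted p 0.0934), and its days overlapped. With the culture as a replicate block (a paired fit) Krt13 was called at 0.47 (adjusted p 0.0156), where 14% of all genes were called higher. Without the day 7 library of mTG12 it was called at 0.65 (adjusted p 0.0289). The median of the 4 suprabasal genes was -0.28, and 0.48 without Krt1, which a stricter filter of a mean of 10 counts removes.

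Without scaling factors the median of all genes moves by -0.147 for day 7 against day 5 and by -0.143 for day 11 against day 5, on the log2 scale. The balance of all genes called turns with it, from 2211 higher and 1775 lower to 1531 and 2739 for day 7 against day 5, and from 3921 and 3700 to 3049 and 4589 for day 11 against day 5. Relative to that shift, the direction of each keratin called in these comparisons was the same with TMM factors, RLE factors or none.

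Day 11 against day 7 without irradiation asks what changes as the organoids age further. Here the luminal genes no longer moved as a group, since Krt19 turned down while Krt7, Krt18 and Krt23 went on rising. Of the suprabasal genes, Krt13 and Krt10 fell.

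The test called 3 keratins higher and 3 lower, beside 9.57% and 11.7% of all genes. Krt23 rose most, by 2.22 ± 0.31 (SE; adjusted p 0.000323) or 4.64-fold. Krt7 rose by 1.13 ± 0.25 (adjusted p 0.00658), 2.19-fold, and Krt18 by 0.92 ± 0.17 (adjusted p 0.00194), 1.90-fold. None of these 3 overlapped between the days, and neither did 36.8% of all genes tested. Krt8, which pairs with Krt18, had 0.02 ± 0.20 (adjusted p 0.971), and its sign turned without the day 7 library of mTG12 (-0.15) or the day 11 library of mTG11 (-0.09). Krt19 fell, at -1.06 ± 0.27 (adjusted p 0.0151), with overlap through mTG11. Its call was lost without day 7 mTG11 (adjusted p 0.0657), day 11 mTG12 (0.0595) or day 11 mTG14 (0.0645).

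Krt13 fell, with a log2 fold change of -1.02 ± 0.19 (adjusted p 0.00256), and so did Krt10, with -1.27 ± 0.30 (adjusted p 0.0108). Neither overlapped between the days. Krt4 was not called at -0.59 ± 0.25 (adjusted p 0.124), and was called without the day 7 library of mTG12, its lowest of that day, at -0.85 (adjusted p 0.0128). Without the day 7 library of mTG14 it was -0.38 and not called. Krt1 was not called at -1.54 ± 0.65 (adjusted p 0.118), though its libraries did not overlap either. The median of the suprabasal genes was -1.14 and that of the luminal genes 0.92, beside 0.00 over all genes.

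Day 11 against day 5 gives the whole course without irradiation. It shares its day 5 libraries with the first comparison and its day 11 libraries with the second. The classes of keratin parted in it, with Krt4 as the exception that stood with the luminal genes.

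All 9 keratins were called, 6 higher and 3 lower, where 21.3% of all genes were called higher and 20.1% lower. Krt23 rose by 4.17 ± 0.37 (SE; adjusted p 3e-06), and Krt7 by 3.83 ± 0.28 (adjusted p 7.87e-07), 14.2-fold. Krt18 rose 4.91-fold (2.30 ± 0.18, adjusted p 1.11e-06). Krt8 and Krt19 had 1.43 ± 0.22 (adjusted p 0.000246) and 1.31 ± 0.28 (adjusted p 0.00227). Krt1 and Krt10 fell, with -2.79 ± 0.58 (adjusted p 0.00226) and -2.31 ± 0.29 (adjusted p 4.74e-05). The libraries of the 2 days did not overlap for any of the 9, nor for 52.3% of all genes tested.

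The mucosal pair moved in opposite directions. Krt4 rose by 0.87 ± 0.26 (adjusted p 0.0164), a call that was lost without day 5 mTG11 (adjusted p 0.0659) or day 11 mTG14 (0.0622). Krt13 fell, with -0.54 ± 0.19 (adjusted p 0.0404). Its call was the least firm, being absent with DESeq2 (adjusted p 0.0744) and without day 5 mTG12 (0.11), day 5 mTG14 (0.121), day 11 mTG11 (0.135) or day 11 mTG12 (0.133). The medians were 2.30 for the luminal genes and -1.42 for the suprabasal genes (-0.53 without Krt1), beside 0.06 over all genes.

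**Figure D2:**
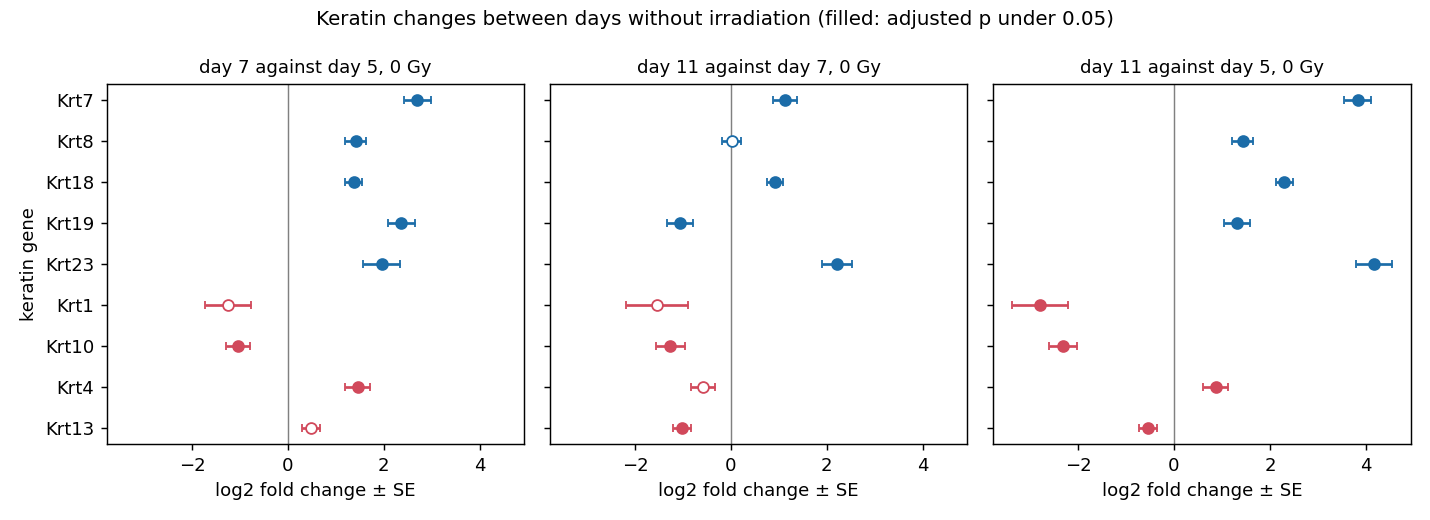
Log2 fold change of each of the 9 keratins (y axis) between days without irradiation (x axis, with bars of 1 SE), 3 libraries per day, luminal genes in blue and suprabasal in red. Filled points have an adjusted p under 0.05. Krt19 changes sign between the steps from day 5 to day 7 and from day 7 to day 11, and Krt4 stands on the side of the luminal genes against day 5.

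The classes were also compared as sums within a library. Luminal CPM summed to 529.8 ± 124 at day 5, 2185 ± 679.8 at day 7 and 2596 ± 709 at day 11 without irradiation (SD, n = 3). Suprabasal CPM, of which Krt13 and Krt4 made up nearly the whole, summed to 4632 ± 857, 6641 ± 1677 and 3569 ± 653. The luminal sum thus grew mostly by day 7, and the suprabasal sum was highest at day 7. Together the 9 genes were 15.1% of all keratin CPM at day 5, 34.1% at day 7 and 44.4% at day 11.

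The log2 ratio of luminal to suprabasal CPM was -2.49, -3.30 and -3.63 at day 5, -1.33, -1.58 and -1.93 at day 7 and 0.10, -0.62 and -0.91 at day 11. The ranges of the 3 days did not overlap, and in each of them mTG11 was highest and mTG14 lowest. Over the 27 libraries the most abundant member of each class was Krt19 or Krt13 by its mean, but at day 11 Krt7 held 42.5% of the luminal sum and Krt19 22.7%. Without Krt19 and Krt13 the ratio was -0.72, -1.82 and -1.91 at day 5, -0.82, -0.44 and -1.28 at day 7 and 1.24, 0.53 and 0.50 at day 11, so that days 5 and 7 overlapped, mTG11 was lower at day 7 than at day 5, and their means differed by 0.64. Group means differed by 1.52 between days 5 and 7, by 1.14 between days 7 and 11 and by 2.66 over the whole course, each more than the pooled SD of 0.47, 0.42 and 0.55. After 7 Gy the ratio was -0.68, -2.06 and -1.84 at day 7 and 0.01, -1.31 and -0.84 at day 11, a difference from 0 Gy of 0.09 and -0.24, within the pooled SD of 0.57 and 0.60. The other irradiated groups had means of -1.49 ± 0.49 and -1.53 ± 0.54 (SD, n = 3) for 2 and 4 Gy at day 7, and of -0.57 ± 0.59 and -0.93 ± 0.60 at day 11. These SDs include the differences between cultures. Only 4 Gy at day 11, at -0.32, -1.52 and -0.94, lay on the same side of 0 Gy, lower, in every culture.

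**Figure D3:**
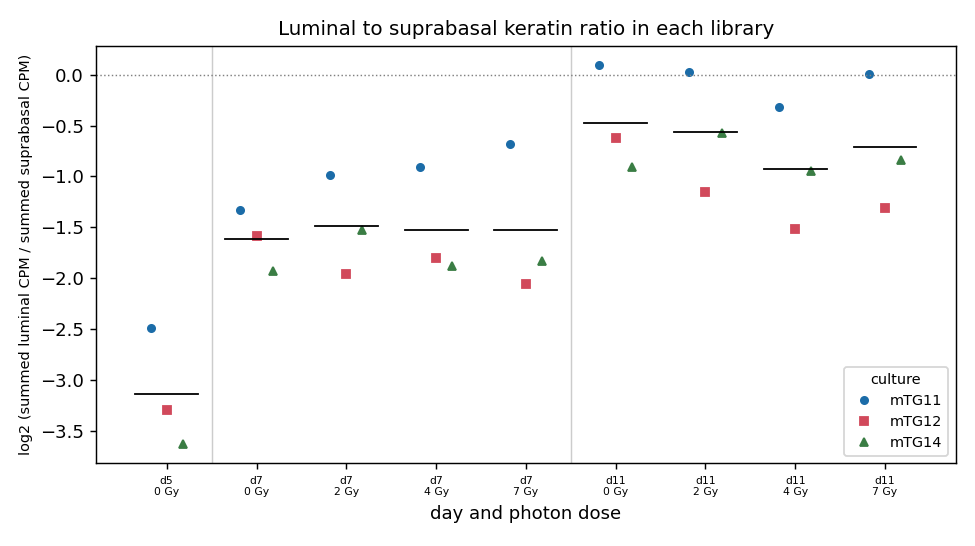
Log2 ratio of summed luminal to summed suprabasal keratin CPM (y axis) in each of the 27 libraries by day and dose (x axis), points coded by culture and bars at group means of 3 libraries. Group means go from -3.14 at day 5 to -1.62 at day 7 and -0.48 at day 11 without irradiation, and mTG11 lies highest in every group.

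Ratios of a pair of keratins, with 1 CPM added to each level, show where partners kept step. Krt8 to Krt18, the filament partners of simple epithelium, had a log2 CPM ratio of -1.35, -1.68 and -1.56 at day 5, -1.26, -1.93 and -1.33 at day 7 and -2.53, -2.35 and -2.23 at day 11. Days 5 and 7 overlapped, and day 11 lay below both. Krt7 to Krt19, the additional type II and type I keratins of ducts, had -1.65, -1.32 and -1.96 at day 5, -1.39, -1.07 and -1.32 at day 7 and 0.73, 0.70 and 1.28 at day 11, so that the sign changed between days 7 and 11 in all 3 cultures. After 7 Gy at day 11 it was 0.15, 0.46 and 0.56, below every unirradiated library of that day. Krt8 to Krt18 at day 11 was -2.79, -2.91 and -2.69 after 2 Gy, below every unirradiated library. After 7 Gy it was -2.22, -2.18 and -1.83, above every unirradiated library, though mTG11 by little. For both pairs the other irradiated groups overlapped with 0 Gy of the same day. Pair ratios were not tested, and each pair was looked at in every irradiated group. Of all genes tested at day 11, 10.4%, 11.2% and 20.8% were without overlap after 2, 4 and 7 Gy.

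Krt4 to Krt13, the mucosal partners, measured -2.69, -2.19 and -2.61 at day 5, -1.37, -1.81 and -1.42 at day 7 and -0.95, -0.97 and -1.20 at day 11, in 3 separate ranges that moved towards 0. Krt1 to Krt10, the epidermal partners, had -2.33, -4.17 and -2.24 at day 5. The ratio was -2.67, -2.72 and -2.73 at day 7 and -2.75, -2.10 and -1.81 at day 11, and these ranges overlapped. Krt1 itself lay under the added 1 CPM at day 11, so the addition sets much of this ratio. At day 7 the highest library after 2, 4 and 7 Gy had -3.08, -3.03 and -3.37, below every unirradiated library of that day. There too Krt1 had group means under the added 1 CPM, at 0.827, 0.558 and 0.894 CPM, so the addition sets much of these ratios. Of all genes tested at day 7, 11.9%, 20.5% and 25.9% were without overlap at these doses.

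The doses of 2, 4 and 7 Gy were each compared with 0 Gy at day 7, 2 days after irradiation, to see how exposure changes the organoids. These comparisons share the 0 Gy libraries. Of the 9 keratins edgeR called 0 at any dose, where the shares called of all genes would give under 1. At an unadjusted p under 0.05 there were 0 at 2 Gy, 1 at 4 Gy and 2 at 7 Gy, and DESeq2 called 0 at each dose. Over all 19346 genes tested, 0.124% were called at 2 Gy, 1.63% at 4 Gy and 6.95% at 7 Gy, which is 24, 315 and 1345 genes (138, 1009 and 2193 with the replicate block).

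The gene under that p at 4 Gy was Krt1, with 1.02, 0.20 and 0.453 CPM after 4 Gy beside 2.34, 1.86 and 1.29 CPM at 0 Gy. Its irradiated libraries lay below the others, and it had a log2 fold change of -1.70 ± 0.59 (p 0.0121, adjusted p 0.187), or -2.44 without the 4 Gy library of mTG11. Krt1 also had -1.17 ± 0.59 at 2 Gy (p 0.0654), without overlap, and -1.06 ± 0.56 at 7 Gy (p 0.0786), with overlap. Of all genes tested, 11.9%, 20.5% and 25.9% were without overlap at 2, 4 and 7 Gy. At 7 Gy Krt10 had 22.1, 22.5 and 23.1 CPM, beside 20.3, 17.8 and 14.2 CPM at 0 Gy. The 7 Gy values were close together and above all 3 of 0 Gy, with a log2 fold change of 0.37 ± 0.15 (p 0.0281, adjusted p 0.171). Krt18 had 469, 385 and 258 CPM after 7 Gy and 311, 289.9 and 255 CPM at 0 Gy. It was higher in each culture, though mTG14 by little, the groups overlapped, and the log2 fold change was 0.37 ± 0.17 (p 0.0442, adjusted p 0.22). Without the 7 Gy library of mTG14 Krt18 was called at 0.57 (adjusted p 0.0304), and without that of mTG11 it was 0.16 and not called.

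Class medians after 2, 4 and 7 Gy at day 7 were 0.15, 0.10 and 0.07 for the luminal genes and -0.15, -0.06 and 0.02 for the suprabasal genes, on the log2 scale. Over all genes they were 0.00, 0.01 and 0.01. With 1 library left out at a time the luminal medians ran from -0.03 to 0.33, -0.08 to 0.32 and -0.09 to 0.32, and the suprabasal from -0.33 to -0.08, -0.27 to 0.05 and -0.21 to 0.25.

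At day 11, which is 6 days after irradiation, the same doses were compared with the 0 Gy libraries of that day. Here too edgeR called 0 of 9 keratins at each dose, where the shares called of all genes would give under 1. The count at an unadjusted p under 0.05 was 0 at 2 Gy, 1 at 4 Gy and 0 at 7 Gy, and DESeq2 called 0. Of all 19901 genes tested, 0% were called at 2 Gy (1159 at an unadjusted p under 0.05, and 1 gene by DESeq2), 0.00502% at 4 Gy and 1.52% at 7 Gy. With the replicate block the numbers of genes called were 72, 238 and 1297.

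Krt4 was the keratin under that p at 4 Gy, with 1362, 2293 and 1541 CPM against 1081, 1079.9 and 1308 CPM at 0 Gy. Each irradiated library exceeded all 3 unirradiated libraries (11.2% of all genes tested were without overlap), and the log2 fold change was 0.56 ± 0.22 (p 0.0257, adjusted p 0.587), or 0.31 without the 4 Gy library of mTG12. Krt19 after 7 Gy had 1109, 646 and 778 CPM against 831, 507 and 448 CPM at 0 Gy. It was higher in all 3 cultures while the groups overlapped, and the log2 fold change was 0.48 ± 0.35 (adjusted p 0.59). It was 0.78 without the 0 Gy library of mTG11 and 0.22 without the 7 Gy library of mTG11. With the replicate block it was called at 0.48 (adjusted p 0.0273), where 3.6% of all genes were called higher. Krt1 was the 1 keratin without overlap after 7 Gy, as were 20.8% of all genes tested. It had 0.349 to 0.546 CPM, below the 0.595 to 0.852 CPM at 0 Gy, all near the floor.

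The class medians at day 11 were -0.08, 0.03 and -0.01 after 2, 4 and 7 Gy for the luminal genes. Suprabasal genes had -0.05, 0.17 and 0.24, and all genes -0.01, -0.01 and 0.01. Over the libraries left out these ran from -0.28 to 0.11, -0.28 to 0.23 and -0.23 to 0.27 (luminal) and from -0.15 to 0.19, 0.07 to 0.42 and 0.14 to 0.40 (suprabasal). Whether the response to 7 Gy differed between days 7 and 11 was tested as an interaction in a fit of the 24 libraries of both days. For 0 of 9 keratins was it called by edgeR (0 at an unadjusted p under 0.05, 0 by DESeq2), beside 3.02% of 21928 genes (663, and 1156 with the replicate block). Krt19 had an interaction of 0.61 ± 0.50 on the log2 scale (adjusted p 0.66), or 0.32 without day 7 0 Gy mTG11 and 0.34 without day 11 7 Gy mTG11. The medians were -0.09 for the luminal (-0.31 to 0.09 over the libraries left out) and 0.36 for the suprabasal genes (0.14 to 0.54), beside 0.02 over all genes.

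For some keratins the cultures kept an order through days and doses. Culture mTG11 had the highest Krt19 and the highest Krt23 in 9 of 9 groups, the highest Krt7 and Krt18 in 8 of 9 and the highest Krt8 in 7 of 9. Culture mTG12 had the lowest Krt23 in 9 of 9 groups and the highest Krt4 in 7 of 9. For Krt13 the highest was mTG14 in 9 of 9 groups and the lowest mTG11 in 8 of 9. No culture led in most groups for Krt10, where mTG11 was highest in 4, mTG12 in 2 and mTG14 in 3 of 9. For Krt1 mTG11 was highest in 6 and mTG14 in 3, and the lowest was mTG11 in 2, mTG12 in 5 and mTG14 in 2. The order of cultures is what the replicate block takes out.

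For each keratin with a mean of at least 10 CPM, genes with the most similar pattern, 2 or 3 of which are given, were sought by Pearson's r of log2(CPM + 1) with TMM factors over the 27 libraries, among 9537 genes. The libraries share days, doses and cultures, so these are descriptions. Krt7 was most like Gabrp (r = 0.986), Cldn3 (0.982) and Mgat4a (0.974). Krt18 was most like Krt7 (r = 0.966), Cgnl1 (0.960) and Ly6e (0.960), and Krt23 like Pdzk1ip1 (r = 0.983) and Frk (0.979). Krt8 had its own pseudogene first, Krt8-ps (r = 0.979), Krt19 (0.890) and Anxa1 (0.871). Krt19 had Igfbp3 (r = 0.927), Akr1b10 (0.906) and Anxa6 (0.904). Among the luminal genes Krt7 thus appeared on the list of Krt18, and Krt19 on that of Krt8. For the suprabasal genes, Krt10 was most like Cox5b (r = 0.947), Atp5j (0.941) and Spink5 (0.937), Krt4 like S100a14 (r = 0.855), Tmprss11e (0.845) and Emp1 (0.835) and Krt13 like Klk11 (r = 0.940), Csta1 (0.924) and Dusp22 (0.898). Krt1 was under 10 CPM and was not compared.

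Other epithelial genes were followed as lists in the same tests, and these lists too were chosen with earlier results of these data known. Of all genes, 12% were called higher and 9.62% lower at day 7 against day 5, 9.57% and 11.7% at day 11 against day 7, and 21.3% and 20.1% at day 11 against day 5, and the counts of the lists below stand beside these shares. Where a list is said to be led by a gene, that gene has the highest mean over all 27 libraries. For 16 genes of simple epithelium, whose tight-junction and surface proteins accompany luminal keratins, 16 were called higher at day 7 against day 5 (median log2 fold change 1.44), 10 higher and 2 lower (Prom1 and Ehf) at day 11 against day 7 (0.57), and 16 higher over the whole course (1.78). The 2 lower became 1 without day 7 mTG12, day 7 mTG14, day 11 mTG11 or day 11 mTG12. The stem and luminal surface gene Prom1 (log2 fold change 2.83 ± 0.18 (SE), adjusted p 3.06e-06) and the claudin gene Cldn3, from 13.3 ± 5.16 to 84.1 ± 31.1 CPM (log2 fold change 2.81 ± 0.32 (SE), adjusted p 0.000106), changed most by day 7. From day 7 to day 11 the mucin gene Muc1 (log2 fold change 1.63 ± 0.36 (SE), adjusted p 0.00644) and Cldn3 (log2 fold change 1.45 ± 0.24 (SE), adjusted p 0.00125) rose most. Summed CPM of the list, led by Wfdc2, averaged 2524 at day 5, 5918 at day 7 and 8554 at day 11.

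Of 18 genes of suprabasal and cornifying cells, 3 were called higher (Crnn, Ivl and Calml3) and 4 lower (Sbsn, Sprr1b, Krtdap and Dmkn) at day 7 against day 5, with a median of -0.49, beside 12% and 9.62% of all genes. With the replicate block these were 5 and 8. At day 11 against day 7, 1 was higher (Cdsn) and 13 lower (median -1.86), and over the whole course 2 were higher (Crnn and Calml3) and 13 lower (-2.08). The 1 higher was lost without day 7 mTG12 or day 11 mTG14, and the 2 became 1 without day 11 mTG14. The mucosal envelope gene Crnn rose by day 7 (log2 fold change 2.33 ± 0.54 (SE), adjusted p 0.00879) while Sbsn fell (log2 fold change -2.60 ± 0.18 (SE), adjusted p 4.81e-06). The cornification genes Calm4, from 189 ± 85.5 to 2.27 ± 0.559 CPM (log2 fold change -6.32 ± 0.45 (SE), adjusted p 2.12e-06), and Lor (log2 fold change -6.31 ± 0.58 (SE), adjusted p 1.44e-05, or -6.97 without day 11 mTG12) fell most from day 7 to day 11. The list, led by Sprr1a, summed to 7877 CPM at day 5, 4296 at day 7 and 1679 at day 11, and so came down through both steps, whereas the suprabasal keratins Krt4 and Krt13 were highest at day 7.

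After irradiation, edgeR called 0 genes of this suprabasal list at 2 Gy on day 7, and 0 at 2 and 4 Gy on day 11. Under an unadjusted p of 0.05 these were 5, 1 and 5 genes, and DESeq2 called 0 in each. At day 7 there was 1 lower of 18 tested at 4 Gy (Krtdap), beside 1.63% of all genes called. At 7 Gy 1 was higher (Ivl) and 4 were lower (Flg, Crnn, Lor and Krtdap), beside 6.95% of all genes called. At day 11 after 7 Gy, 2 of 17 tested were higher, Cnfn and Krtdap, beside 1.52% of all genes called. Cnfn averaged 206 ± 90.1 CPM beside 48.3 ± 21.7 at 0 Gy (SD, n = 3; log2 fold change 2.04 ± 0.34 (SE), adjusted p 0.0139), and its call was lost without day 11 0 Gy mTG11 (adjusted p 0.0554) or mTG12 (0.0654). Krtdap averaged 78.2 ± 30.5 CPM beside 22.3 ± 7.00 (log2 fold change 1.78 ± 0.29 (SE), adjusted p 0.0123), and its call was lost without day 11 0 Gy mTG14 (0.0519). In the interaction of 7 Gy with day, 5 of the 18 genes of the list were called, all toward higher at day 11 (12 at an unadjusted p under 0.05, 7 by DESeq2), beside 3.02% of all genes, with a median of 1.84. They were Krtdap, at 3.24 ± 0.39 (adjusted p 2.9e-05), Lor, at 4.99 ± 0.96 (adjusted p 0.00313), Flg, at 4.08 ± 1.02 (adjusted p 0.0262), Cnfn, at 2.31 ± 0.45 (adjusted p 0.0036), and Dmkn, at 1.67 ± 0.43 (adjusted p 0.0317). Krtdap and Cnfn were called with any 1 of the 12 libraries at 0 and 7 Gy left out, Lor in 11 of 12 such fits, and Flg and Dmkn in 5 of 12. The 4 suprabasal keratins were not called in these comparisons. Of the 16 genes of the simple-epithelium list, 1 was lower at day 7 after 4 Gy (Ehf), beside 1.63% of all genes called. After 7 Gy 1 was higher (Cldn4) and 2 were lower (Prom1 and Ehf), beside 6.95% of all genes called.

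Of 8 genes of the basal layer and its attachment, 0 were called by edgeR at day 7 against day 5 (1 at an unadjusted p under 0.05, 0 by DESeq2), with a median of 0.03, and 1 was lower without day 7 mTG12. At day 11 against day 7, 7 were lower (-0.76), and 4 without day 7 mTG12, day 11 mTG11 or day 11 mTG14. The laminin gene Lamb3 (log2 fold change -1.01 ± 0.14 (SE), adjusted p 0.000303) and the integrin gene Itga6 (log2 fold change -0.96 ± 0.12 (SE), adjusted p 0.000147) fell most. The most abundant of the list, Itgb4, averaged 904 ± 175, 904 ± 129 and 614 ± 144 CPM at days 5, 7 and 11 (SD, n = 3) and was called lower at day 11 against day 7 alone. Over the whole course 6 were lower (-0.77). Of 10 genes whose proteins tie keratin filaments to desmosomes and other structures, 2 were higher by day 7, beside 12% of all genes (Pkp2, log2 fold change 1.07 ± 0.22 (SE), adjusted p 0.00454, and Evpl, log2 fold change 0.68 ± 0.17 (SE), adjusted p 0.0151). Evpl lost its call without day 5 mTG11 (adjusted p 0.0568), day 5 mTG12 (0.0593) or day 7 mTG14 (0.068). At day 11 against day 7, 1 linker was higher (Eppk1, log2 fold change 1.43 ± 0.17 (SE), adjusted p 8.17e-05) and 6 lower, of which Dsp, the desmoplakin gene, changed most (log2 fold change -1.50 ± 0.20 (SE), adjusted p 0.000256). Over the whole course 4 were higher (Eppk1, Pkp2, Evpl and Ppl) and 6 lower. The most abundant linker, Perp, averaged 1471 ± 91.8, 1024 ± 82.1 and 651 ± 136 CPM and was called lower from day 7 to day 11 and over the whole course. The medians of the linkers were 0.09, -0.61 and -0.54 in these 3 comparisons.

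Among 16 transcription factor genes of epithelial differentiation, 2 were higher (Zfp750 and Grhl1) and 5 lower (Ovol2, Pitx1, Hes1, Barx2 and Cebpa) at day 11 against day 5, beside 21.3% and 20.1% of all genes. There was 1 higher without day 5 mTG11, day 5 mTG12, day 11 mTG11 or day 11 mTG14, and 3 were lower without day 5 mTG14 or day 11 mTG11. For the 2 steps within this course, where genes were called in both directions, the median is given. The medians at day 7 against day 5, day 11 against day 7 and day 11 against day 5 were 0.10, -0.08 and -0.17. The most abundant gene of the list, Klf4, averaged 434 ± 44.8, 450.3 ± 103 and 452 ± 65.4 CPM at days 5, 7 and 11 (SD, n = 3) and was not called between days. Ovol1 went down and then up (log2 fold change -1.52 ± 0.27 (SE), adjusted p 0.00199, then log2 fold change 1.14 ± 0.27 (SE), adjusted p 0.0104), and Ovol2 fell by day 7 (log2 fold change -1.28 ± 0.23 (SE), adjusted p 0.00242). Of 12 other intermediate filament genes 9 were tested between days. There 3 were lower (Des, Lmnb2 and Lmna) by day 7, 3 lower (Des, Lmna and Lmnb1) from day 7 to day 11 and 7 lower over the whole course, with medians of -0.77, -0.89 and -1.49.

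The other keratin rows, 46 in number with 24 tested between days, set the scale for the 9. They summed to 28925 CPM at day 5, 16902 at day 7 and 7729 at day 11, led in the mean over all 27 libraries by the basal keratin Krt5, and 5 were at 0 in all libraries (Krt26, Krt34, Krt40, Krt74 and Krt82). By day 7, 3 were called higher (Krt20, Krt15 and Krt80) and 6 lower, beside 12% and 9.62% of all genes, with a median of -0.40, and 5 were higher without day 7 mTG12. Krt20, a keratin of gut and bladder lining, went from 3.68 ± 0.709 to 96.3 ± 15.8 CPM (log2 fold change 4.85 ± 0.28 (SE), adjusted p 1.33e-06), and Krt32 fell (log2 fold change -2.69 ± 0.66 (SE), adjusted p 0.0118, or -3.37 without day 7 mTG14). From day 7 to day 11, 9 were lower (median -0.99), and over the whole course 3 were higher (Krt20, Krt80 and Krt15) and 9 lower (-1.28).

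The basal pair Krt5 and Krt14 averaged 6106 ± 479 and 6849 ± 892 CPM at day 5 and 4625 ± 193 and 4091 ± 805 CPM at day 7 (SD, n = 3). Neither was called between these days (log2 fold change -0.25 ± 0.11 (SE), adjusted p 0.115 for Krt5, log2 fold change -0.59 ± 0.23 (SE), adjusted p 0.093 for Krt14). With the replicate block both were called lower (Krt5 -0.25, adjusted p 0.0292, and Krt14 -0.62, adjusted p 0.00288). From day 7 to day 11 Krt5 went from 4625 ± 193 to 2495 ± 401 CPM (log2 fold change -0.90 ± 0.11 (SE), adjusted p 9.45e-05). The keratins of activated keratinocytes Krt6a, from 4017 ± 45.3 to 1908 ± 101 CPM (log2 fold change -1.08 ± 0.10 (SE), adjusted p 1.21e-05), and Krt16, from 787 ± 81.1 to 61.3 ± 37.8 CPM (log2 fold change -3.69 ± 0.32 (SE), adjusted p 1.03e-05, or -4.28 without day 11 mTG12), fell over the same step, as did Krt79 (log2 fold change -3.18 ± 0.70 (SE), adjusted p 0.00658), which had -6.25 without day 11 mTG11. After irradiation 25 of these keratins were tested at day 7. Krt17 was higher after 4 Gy, beside 1.63% of all genes called. After 7 Gy 4 were higher (Krt90, Krt17, Krt20 and Krt6a) and 1 lower (Krt33b), beside 6.95% of all genes called.

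Lists of markers of other cell types were followed as well. Some of them rest almost wholly on 1 gene, so their sums do not show that a cell type was present. Their part in the keratin changes was not tested. Thyrocyte markers, 7 of 13 tested, had 2 called higher by day 7 (Slc26a4, log2 fold change 3.64 ± 0.86 (SE), adjusted p 0.00984, and 6.45 without day 5 mTG11, and Duoxa2, log2 fold change 3.53 ± 0.57 (SE), adjusted p 0.00117), 3 higher from day 7 to day 11 (Duoxa2, from 3.83 ± 0.428 to 136 ± 26.4 CPM, log2 fold change 5.14 ± 0.20 (SE), adjusted p 2.84e-08, Duox2, log2 fold change 4.86 ± 0.34 (SE), adjusted p 2.12e-06, and Nkx2-1) and 4 over the whole course (median 2.28). Fibroblast markers (8 of 8 above 0, led by Fbln1) averaged 147 ± 45.9, 145 ± 47.8 and 77.6 ± 24.4 CPM at days 5, 7 and 11 without irradiation (SD, n = 3, as for the lists below). Of these 1 was higher by day 7 (Fbln1), 3 were lower from day 7 to day 11 (Col3a1, Col1a2 and Fbln1) and 4 lower over the whole course (Lum, Col3a1, Col1a2 and Col1a1). Leukocyte markers (5 of 6 above 0, Cd3e at 0, led by Cd68) averaged 10.9 ± 5.07, 25.7 ± 6.68 and 48.5 ± 14.8 CPM, and Cd68 was called higher in each day comparison. Cd68 held 82.9% of their sum. Over all 27 libraries Lyz2 had 570 counts, Csf1r 36.4, Ptprc 12 and Cd79a 3. Ciliated airway markers (5 of 5, led by Foxj1) summed to 0 in each library at day 5, 2.34, 3.71 and 0.257 CPM at day 7 and 43.3, 42.4 and 20.1 CPM at day 11, with 1 called higher by day 7 (Foxj1) and 5 from day 7 to day 11 and over the whole course. At day 11 they averaged 14.7, 9.37 and 10.4 CPM after 2, 4 and 7 Gy, beside 35.3 at 0 Gy. There edgeR called 0, 0 and 1 (Foxj1, lower), beside 0%, 0.00502% and 1.52% of all genes. At an unadjusted p under 0.05 there were 3, 5 and 5, and DESeq2 called 0, 1 and 1.

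Secretory airway markers (5 of 5, led by Scgb3a1) averaged 308 ± 235, 248 ± 147 and 131 ± 98.4 CPM, with 0 called by edgeR by day 7 (1 at an unadjusted p under 0.05, and 1 by DESeq2) and 2 lower (Scgb1a1 and Scgb3a2) in the other day comparisons. Thymic epithelium markers (3 of 3, led by Foxn1) averaged 7.27 ± 1.01, 3.00 ± 0.210 and 2.92 ± 0.620 CPM, and Foxn1 was called lower by day 7 and over the whole course. Foxn1 held 98.9% of their sum, and Psmb11 and Aire had 4.03 and 1 counts over all 27 libraries. C cell markers (5 of 5, of which Calcb held nearly all) averaged 8.30 ± 4.66 CPM at day 5 and summed to 22.4, 39.2 and 18.5 CPM at day 7, 87.5, 89.4 and 77.2 after 7 Gy at day 7, 4.76, 2.41 and 2.47 at day 11 and 14.7, 12.8 and 8.47 after 7 Gy at day 11. Calcb was called higher by day 7, lower from day 7 to day 11, and higher after 4 and 7 Gy at day 7 and after 7 Gy at day 11. Beside these last 3 calls, 1.63%, 6.95% and 1.52% of all genes were called. Over all 27 libraries Calcb had 2680 counts, Calca 26, Chga 25.5, Chgb 3 and Syp 2. Endothelial markers (4 of 5 above 0, Emcn at 0, led by Pecam1) averaged at most 1.11 CPM in a group, with 0 of 5 reaching the filter between days. Parathyroid markers (2 of 3 above 0, Gcm2 at 0, led by Pth) averaged at most 1.73 ± 2.45 CPM, at day 5, where 1 library had 4.56 and the lowest 0.285 CPM, with 1 of 3 reaching the filter between days. It was not called by edgeR. For day 11 against day 5 it had an unadjusted p under 0.05 and was called by DESeq2, and for the other 2 comparisons of days neither held. Mitochondrial transcripts took 3.36% of counts at day 5, 5.86% at day 7 and 8.01% at day 11 without irradiation, and their part was not tested either. Among other results after irradiation, edgeR called Fbln1, 1 of 8 fibroblast markers, lower at day 7 after 4 and 7 Gy, beside 1.63% and 6.95% of all genes called. Barx2 and Cebpb, 2 of 16 transcription factor genes, were lower at day 7 after 7 Gy, beside the same 6.95%. Des, 1 of 9 other intermediate filament genes tested, was higher at day 11 after 7 Gy, beside 1.52%. These are picked calls, and the other lists after irradiation are given in part.

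The promoters of keratins that moved together or apart are shown to set their letters side by side. RefSeq promoters (GRCm38.p6, from before to just after the gene's start, 300 bases each) are given for 6 of the keratins, with 7 promoters. They were searched on both strands for 3 motifs, and capitals mark the matches. The AP-1 motif, TGANTCA, occurs in 7.81% of all 32851 promoters of the same length. The GC box, searched as GGGCGG, occurs in 35.7% of them. The TATA box, searched as TATAAA, occurs in 13.6% of them. Krt7 (chr15:101412153-101412452, plus strand) has 4 GC boxes and 66.3% G and C. Krt18 (chr15:102027966-102028265, plus strand) and Krt23 (chr11:99493071-99493370, minus strand), which rose with Krt7, have none of the 3. Krt13 has 1 AP-1 match in its first promoter (chr11:100121517-100121816, minus strand) and 2 in its second (chr11:100120528-100120827, minus strand). Krt10 (chr11:99389315-99389614, minus strand), which fell, has 1 TATA box, and Krt8 (chr15:102004293-102004592, minus strand) has 2 TATA box matches that overlap on opposite strands. A match is a description of letters only.
Krt7: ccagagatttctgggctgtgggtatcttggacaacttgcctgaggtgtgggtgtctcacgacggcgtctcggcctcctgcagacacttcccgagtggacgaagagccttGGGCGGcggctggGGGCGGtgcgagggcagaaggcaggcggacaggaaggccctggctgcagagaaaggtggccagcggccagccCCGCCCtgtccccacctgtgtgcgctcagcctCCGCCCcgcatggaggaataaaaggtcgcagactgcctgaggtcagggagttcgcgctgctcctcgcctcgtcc
Krt18: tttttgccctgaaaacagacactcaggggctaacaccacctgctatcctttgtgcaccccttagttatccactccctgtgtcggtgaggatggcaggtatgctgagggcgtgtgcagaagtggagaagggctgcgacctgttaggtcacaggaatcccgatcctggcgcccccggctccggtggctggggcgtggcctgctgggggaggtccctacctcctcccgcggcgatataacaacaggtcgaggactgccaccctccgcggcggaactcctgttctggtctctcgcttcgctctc
Krt23: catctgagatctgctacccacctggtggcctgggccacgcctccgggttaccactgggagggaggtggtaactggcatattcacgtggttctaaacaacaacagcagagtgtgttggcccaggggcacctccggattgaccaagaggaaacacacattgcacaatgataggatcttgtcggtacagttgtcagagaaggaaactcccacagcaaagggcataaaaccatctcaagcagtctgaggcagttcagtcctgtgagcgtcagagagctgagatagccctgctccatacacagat
Krt8: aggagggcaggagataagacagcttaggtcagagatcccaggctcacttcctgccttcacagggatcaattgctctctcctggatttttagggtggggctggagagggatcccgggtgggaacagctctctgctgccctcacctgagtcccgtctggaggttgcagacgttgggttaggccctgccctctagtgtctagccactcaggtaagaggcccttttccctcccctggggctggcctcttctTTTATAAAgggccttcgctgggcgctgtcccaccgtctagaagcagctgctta
Krt13, first promoter: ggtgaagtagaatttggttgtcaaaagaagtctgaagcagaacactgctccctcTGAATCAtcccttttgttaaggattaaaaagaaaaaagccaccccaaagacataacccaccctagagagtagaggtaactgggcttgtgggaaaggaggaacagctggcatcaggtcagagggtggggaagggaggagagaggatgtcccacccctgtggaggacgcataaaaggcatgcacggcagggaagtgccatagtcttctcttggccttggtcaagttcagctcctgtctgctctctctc
Krt13, second promoter: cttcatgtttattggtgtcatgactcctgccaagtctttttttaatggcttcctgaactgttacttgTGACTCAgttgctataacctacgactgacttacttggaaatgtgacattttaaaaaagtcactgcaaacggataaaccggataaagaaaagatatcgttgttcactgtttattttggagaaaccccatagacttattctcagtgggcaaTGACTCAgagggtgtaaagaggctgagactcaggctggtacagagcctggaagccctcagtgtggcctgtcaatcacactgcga
Krt10: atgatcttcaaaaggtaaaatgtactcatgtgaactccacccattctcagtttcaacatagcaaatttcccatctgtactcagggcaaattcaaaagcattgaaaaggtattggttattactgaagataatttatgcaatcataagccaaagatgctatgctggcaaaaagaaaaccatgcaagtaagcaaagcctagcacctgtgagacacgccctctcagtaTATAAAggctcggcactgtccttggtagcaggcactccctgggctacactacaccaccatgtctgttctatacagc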

How the data were processed

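RNA of mouse thyroid gland organoids was measured in 27 libraries, 3 in each of 9 day and dose groups, and each column of the table was assigned to its group by its header. The table deposited by the authors holds estimated counts per gene symbol, from 3′ libraries (Smart3SEQ) aligned to GRCm39. The submitters' notes name STAR and edgeR, and the counting step, the annotation, the handling of UMIs and the rule behind fractional values are not stated. Of the nonzero values 43.7% were fractional, which the planned tests had not foreseen, and counts were rounded to whole numbers before every fit. CPM uses unrounded counts and totals. Totals ran from 2528866 to 5723150, so that a floor of 3 counts is 0.524 to 1.19 CPM. The 9 keratins and all lists were chosen with earlier results of these data known.

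Tests used edgeR 4.0.16 in R 4.3.3 with TMM factors, estimateDisp, and the quasi-likelihood F test (glmQLFit and glmQLFTest). A gene was tested if its counts over all libraries in a fit came to 10 or more. P-values were adjusted over all genes tested by the Benjamini-Hochberg method, with a threshold of 0.05. The SE is the log2 fold change divided by the root of F. Fits held the 9 unirradiated libraries, the 12 of day 7, the 12 of day 11 or, for the interaction, the 24 of both days. The methods name no design, so culture was no term in these fits. Pairing by culture was checked: with group means removed, libraries of the same culture correlated at a mean r of 0.213 (days), 0.278 (day 7) and 0.357 (day 11), with minima of 0.122, 0.184 and 0.263. All 9, 18 and 18 pairs were over 0.1, and fits with a replicate block are given too. Between replicates of a group the lowest chi-square per degree of freedom was 3.39.

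Alternatives were DESeq2 1.42.0, RLE factors, no scaling factors, a filter of 1 count, a filter of a mean of 10 counts, fits of the compared groups alone, a block for replicate, each library left out in turn, CPM on TMM-adjusted totals, and the class ratio without the most abundant member of each class or from means of log2(CPM + 1). The sum of Krt8 and Krt8-ps was chosen after seeing the data. The rule for naming genes was the 9 keratins in every comparison and, for each list, the 2 genes of highest mean CPM and the 2 of largest absolute log2 fold change among those called. Not all genes it picks are printed, and those printed were chosen after their values were seen. All other keratins form 1 more list. For keratins with a mean of 10 CPM or more 2 or 3 of the 3 most alike genes are named. Where 5 or fewer genes of a list were counted, they are named for that reason, after their values were seen. The 18 lists hold luminal and suprabasal keratins, simple epithelium, suprabasal and cornifying cells, basal layer, keratin linkers, transcription factors, other intermediate filaments, other keratins, and markers of thyrocytes, fibroblasts, endothelium, leukocytes, C cells, parathyroid, ciliated and secretory airway cells and thymic epithelium. Positions are from GENCODE vM39. Summaries used Python 3.11.15, pandas 2.3.3 and NumPy 2.4.6, and plots Matplotlib 3.10.9. No library was left out of the values reported, and differences between 2 irradiated doses were not tested. The tests were tried on simulated data. Results of the lists after irradiation are given in part.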

Additional observations from a re-analysis of the deposited data

Results flagged for a closer look

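The response to 7 Gy differed between days 7 and 11, by the test of the difference itself (the interaction), for 12 genes of the lists, beside 3.02% of all genes and 0 of the 9 keratins. These were 5 of 18 suprabasal and cornifying genes, 1 of 8 of the basal layer and 1 of 10 linkers. The rest were 1 of 16 transcription factor genes, 1 of 8 fibroblast markers, and 1 higher and 2 lower of 28 other keratins tested. DESeq2 and the fit with the replicate block called all 12. Fits of the compared groups alone lost the calls of Dmkn (1.64 ± 0.46, adjusted p 0.0698) and Flg (4.06 ± 1.07, 0.0552). They also lost those of Krt78 (2.75 ± 0.74, 0.0595) and Krt20 (-1.26 ± 0.34, 0.0621). Values are on the log2 scale with SE, and after each interaction stand the changes after 7 Gy in the fits of single days.

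Among the genes of suprabasal and cornifying cells, Krtdap had an interaction of 3.24 ± 0.39 (adjusted p 2.9e-05), with -1.43 ± 0.22 at day 7 and 1.78 ± 0.29 at day 11. Cnfn had 2.31 ± 0.45 (adjusted p 0.0036), with -0.24 ± 0.24 at day 7 and 2.04 ± 0.34 at day 11. Lor had 4.99 ± 0.96 (adjusted p 0.00313), with -2.51 ± 0.39 at day 7 and 2.42 ± 0.84 at day 11, and was not called without day 11 7 Gy mTG12 (3.70, adjusted p 0.082). Flg had 4.08 ± 1.02 (adjusted p 0.0262), with -4.33 ± 0.72 at day 7 and -0.31 ± 0.60 at day 11, and Dmkn had 1.67 ± 0.43 (adjusted p 0.0317), with -0.67 ± 0.19 at day 7 and 0.97 ± 0.35 at day 11. With 1 library left out at a time the interactions ran from 2.90 to 3.48 (Krtdap), 2.01 to 2.75 (Cnfn), 3.70 to 5.66 (Lor), 3.46 to 4.52 (Flg) and 1.25 to 1.99 (Dmkn), and the last 2 were called in 5 of 12 such fits each.

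Of the other lists, Trp63 of the basal layer had 0.99 ± 0.18 (adjusted p 0.0018), with -0.64 ± 0.10 at day 7 and 0.31 ± 0.14 at day 11. The linker gene Dsp had 1.25 ± 0.30 (adjusted p 0.0215), with -0.34 ± 0.17 at day 7 and 0.87 ± 0.23 at day 11. The transcription factor gene Barx2 had 1.07 ± 0.21 (adjusted p 0.00356), with -0.59 ± 0.14 at day 7 and 0.45 ± 0.14 at day 11, and the fibroblast marker Fbln1 had 1.75 ± 0.26 (adjusted p 0.000217), with -1.32 ± 0.14 at day 7 and 0.39 ± 0.20 at day 11. Of the other keratins, Krt78 had 2.77 ± 0.66 (adjusted p 0.0196), with -1.52 ± 0.47 at day 7 and 1.23 ± 0.41 at day 11. Krt17 had -0.93 ± 0.20 (adjusted p 0.00964), with 1.00 ± 0.17 at day 7 and 0.05 ± 0.09 at day 11, and Krt20 had -1.24 ± 0.33 (adjusted p 0.0419), with 0.80 ± 0.19 at day 7 and -0.47 ± 0.25 at day 11. Over the libraries left out these ran from 0.85 to 1.20 (Trp63), 0.99 to 1.48 (Dsp), 0.97 to 1.24 (Barx2), 1.60 to 1.90 (Fbln1), 2.38 to 3.22 (Krt78), -1.03 to -0.87 (Krt17) and -1.43 to -0.93 (Krt20). Trp63, Barx2, Fbln1 and Krt17 were called in all 12 such fits, Dsp and Krt78 in 7 and Krt20 in 5.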

How the results depend on the processing

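Of 434 alternative values for the keratin fold changes of the report (all 9 keratins between days, and 6 values after irradiation), 408 kept direction and side of the threshold, 13 gained a call, 11 lost it and 2 reversed. Both reversals are of Krt8 at day 11 against day 7, which was not called: -0.15 without day 7 mTG12 and -0.09 without day 11 mTG11, within -0.15 to 0.19 over the libraries left out. The cause was not tested. Of the list-gene fold changes 591 were the same, 9 gained a call and 42 lost it, 36 of them in the interaction. On TMM-adjusted totals, 81 of 81 group means in CPM moved by less than 1 SD. Summing Krt8 with Krt8-ps, chosen after seeing the data, changed no call.

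With the replicate block, Krt13 at day 7 against day 5 and Krt19 at day 11 after 7 Gy (1 keratin there) gained a call, and no other keratin call changed. Under it the genes called were 138 for 2 Gy against 0 Gy, day 7, 1009 for 4 Gy against 0 Gy, day 7, 2193 for 7 Gy against 0 Gy, day 7, 72 for 2 Gy against 0 Gy, day 11, 238 for 4 Gy against 0 Gy, day 11, 1297 for 7 Gy against 0 Gy, day 11, and 1156 for the 7 Gy response, day 11 against day 7. In the same order the filter of 1 count gave 404, 1263, 2211, 267, 465, 1205 and 1234. Under that filter the keratins called were 2 for 7 Gy at day 7 (Krt18 and Krt8), 1 for 4 Gy at day 11 (Krt4), 2 for 7 Gy at day 11 (Krt19 and Krt4) and 1 for the interaction (Krt19). Between days it added Krt1 (adjusted p 0.0449) and Krt13 (adjusted p 5.07e-06) at day 7 against day 5, and Krt4 (adjusted p 4.9e-07) at day 11 against day 7. In the fit of day 11 the prior degrees of freedom were 5.74 and became infinite under this filter, so that no gene there kept a spread of its own. For the other fits the cause was not tested. DESeq2 gave 59 genes for 2 Gy at day 7, and 1 and 37 for 2 and 4 Gy at day 11, and the cause was not tested. Fits of the compared groups alone, with 6 libraries in place of 12, gave 7 genes for 2 Gy at day 7 and 0 for 4 Gy at day 11, where the report has 1.

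Leaving out 1 library at a time gave 2944 to 3321 genes for day 7 against day 5, 0 Gy (7 to 8 keratins), 2922 to 3338 for day 11 against day 7, 0 Gy (5 to 7) and 6455 to 6869 for day 11 against day 5, 0 Gy (8 in each). For 2 Gy against 0 Gy, day 7, it gave 8 to 24 genes: 9, 8 and 9 without 0 Gy mTG11, mTG12 or mTG14, and 8 and 15 without 2 Gy mTG12 or mTG14. For 4 Gy against 0 Gy, day 7, it gave 125 to 229: 136 and 145 without 0 Gy mTG11 or mTG14, and 133 and 125 without 4 Gy mTG11 or mTG12. For 7 Gy against 0 Gy, day 7, it gave 705 to 1000: 746 without 0 Gy mTG14, and 705 and 861 without 7 Gy mTG11 or mTG12. Here 0 to 1 keratins were called (Krt18 without 7 Gy mTG14), and 0 in all other dose fits with a library left out. At day 11 it gave 0 to 0 genes for 2 Gy, and for 4 Gy 0 to 1, with 0 without any library but 0 Gy mTG14. For 7 Gy against 0 Gy, day 11, it gave 60 to 165: 121, 77 and 60 without 0 Gy mTG11, mTG12 or mTG14, and 136, 156 and 165 without those of 7 Gy. The interaction gave 443 to 606. The difference in log2 ratio of luminal to suprabasal CPM ranged over libraries left out from 1.28 to 1.85 (day 7 minus day 5), 0.85 to 1.35 (day 11 minus day 7), 2.37 to 2.99 (day 11 minus day 5), -0.33 to 0.36 (7 Gy, day 7) and -0.60 to 0.06 (7 Gy, day 11). Without the most abundant member of each class it was 0.64 for day 7 minus day 5 and 1.60 for day 11 minus day 7, and from means of log2(CPM + 1) it was 3.40 for day 11 minus day 5. These forms weigh the members differently by construction. Depth limits Krt1, which had 3 counts or fewer in 15 of 27 libraries.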
